A study of Mus musculus with 26 samples.

Results

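The transcriptome of mouse epiblast-like cells (EpiLCs) was compared with that of primordial germ cell-like cells (PGCLCs) made from them, 2 days into induction, in control cells of a study on Tex10. The comparison covers every gene whose mean reached at least 1 over the 10 libraries of the dTAG13 table, which is 16605 of 53978 features, and 4 of the 26 libraries of the series. EpiLCs were cells of strain 129Sv/J, labelled untreated (2 libraries, replicates 1 and 2). Day 2 PGCLCs were of the same strain and had received DMSO, the solvent of the dTAG13 experiment (2 libraries). The other 6 libraries of that table are day 4 DMSO cells and day 2 and day 4 cells given 500 nM dTAG13, a small molecule that directs tagged proteins to degradation. They enter the fit only through the estimate of the spread. The solvent separates the groups as fully as the induction does, so the effects of DMSO and of induction cannot be told apart. The labels do not say whether day 2 cells were sorted, which cell line or clone was used, whether the control cells carry the tag, or whether replicates came from separate cultures, so p-values measure the spread between libraries, which may be technical. In bulk RNA, fewer cells of a type and less RNA per cell cannot be told apart.

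EpiLCs model the formative epiblast of the early postimplantation embryo, a state marked by factors such as Otx2, Pou3f1 and Fgf5 and by high levels of the de novo DNA methyltransferases. In the embryo, BMP4 from the extraembryonic ectoderm, on cells made competent by WNT signals, induces a few epiblast cells to become primordial germ cells. Prdm1, Prdm14 and Tfap2c form the transcription factor core of that decision, and the cells then return to expressing part of the naive pluripotency network while their DNA loses methylation. PGCLC cultures usually supply BMP4 together with LIF, SCF and EGF in floating aggregates.

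Libraries held 7129095 and 8564563 reads (EpiLC) and 6662524 and 6119730 reads (day 2) in the table, and 1 read was worth between 0.111 and 0.136 units. Values are given as TMM-scaled CPM, reads scaled to a common library size after the TMM adjustment, and fold changes are on log2(value + 1), which understates the change of low genes. Replicates correlated across the tested genes at r = 0.9911 in EpiLCs and 0.9881 at day 2, and their chi-square per gene (3.34 and 4.81) was above counting error. Tex10, the gene targeted elsewhere in the series, was not called, at 121 and 131 in the EpiLC libraries and 106 and 113 at day 2 (log2 fold change -0.20 ± 0.11 (SE), limma adjusted p = 0.185).

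The germ cell factor gene Tfap2c and the BMP target Id1 were among the 12 largest rises and the epiblast marker Fgf5 was the largest fall. A gene was called at a limma adjusted p under 0.05 (Benjamini-Hochberg, 16605 genes), and 4347 genes were called, 26.2% of those tested. At day 2, 1902 of them were higher (11.5% of all tested) and 2445 lower (14.7%). The counts of each gene list below are to be read beside these shares. In 4345 of the 4347 both day 2 libraries lay beyond both EpiLC libraries, which is no separate evidence, since the calls rest on the same libraries. The absolute log2 fold change was at least 1 for 784 of the higher and 683 of the lower genes, and at least 3 for 23 and 22. By gene type, 1574 of 12660 protein-coding genes were higher and 2143 lower, while 43 of 348 lincRNAs were higher and 28 lower. Higher genes made up 43.8% of calls on the deposited scale, 53.3% after quantile normalization and 53.4% with a fold threshold of 1. The count fell to 2471 without EpiLC replicate 2 and to 2893 without day 2 replicate 1.

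**Figure D1:**
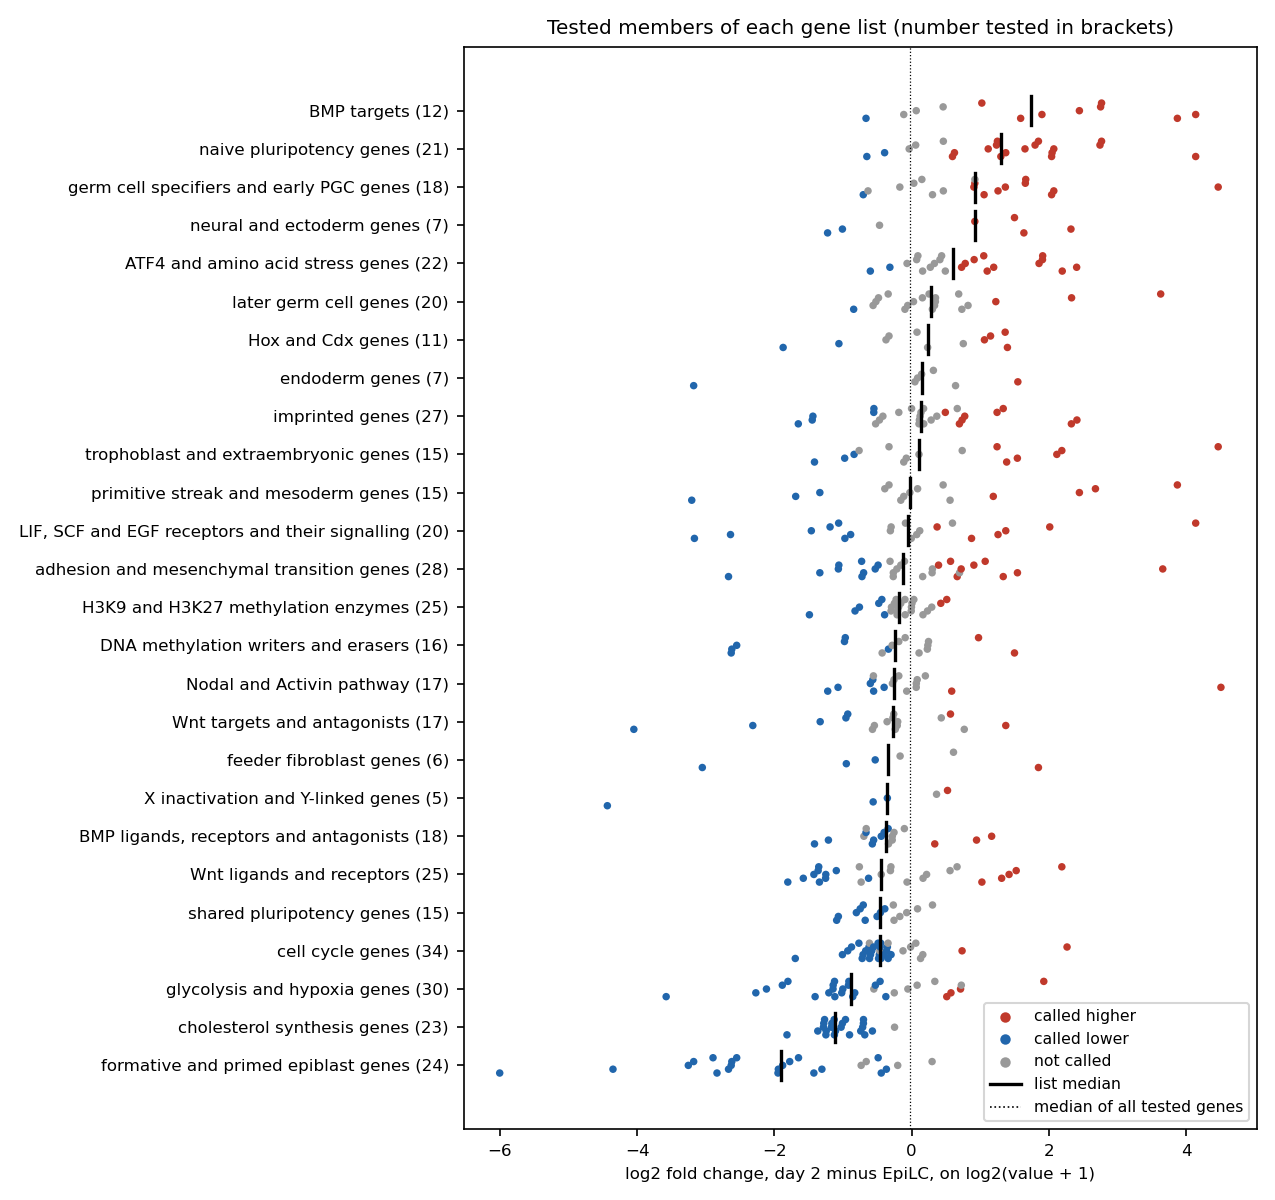
Log2 fold change, day 2 minus EpiLC on log2(value + 1), of every tested member of 26 gene lists, ordered by list median (black bar). Red points were called higher, blue points called lower and grey points not called; BMP targets and naive pluripotency genes have the highest medians (1.74 and 1.30), followed by germ cell specifiers and neural genes (both 0.92), and formative epiblast genes the lowest (-1.91).

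More germ cell specifiers were called higher than lower at day 2. Of 18 listed germ cell specifiers and early germ cell genes, all tested, 10 were called higher and 1 lower, with a median log2 fold change of 0.92 against -0.03 for all tested genes. Of these, 9 of the 10 rises and the 1 fall were called in every setting (here and below, each of the up to 16 settings in which the gene passed the filter and had a value), and Itgb3 was not (without EpiLC replicate 2 its log2 fold change was 0.66, adjusted p = 0.15, and without day 2 replicate 2 it was 0.79, adjusted p = 0.0803). Tfap2c, the AP-2 family factor of the germ cell core, was at 2.28 and 4.99 in the EpiLC libraries and 104 and 90.9 at day 2. The groups were far apart, a 26.8-fold ratio of means (log2 fold change 4.47 ± 0.18 (SE), limma adjusted p = 8.55e-14). At day 4 Tfap2c was at 59.8 and 51.8, below both day 2 libraries. Prdm14, which represses the de novo methyltransferases in germ cells, was at 8.87 and 6.65 in the EpiLC libraries and 36.5 and 34.6 at day 2 (log2 fold change 2.07 ± 0.21 (SE), limma adjusted p = 1.53e-07). Prdm1, the repressor of somatic genes, was at 21.5 and 24.4 in the EpiLC libraries and 51.2 and 46.4 at day 2 (log2 fold change 1.06 ± 0.18 (SE), limma adjusted p = 0.000115). Of the 3 core factors Prdm1 had the smallest fold change. Nanos3, an RNA-binding protein needed for germ cell survival, was at 3.29 and 3.43 in the EpiLC libraries and 9.43 and 11.1 at day 2 (log2 fold change 1.37 ± 0.25 (SE), limma adjusted p = 0.000251). Kit, the receptor of SCF, was at 23.4 and 18.1 in the EpiLC libraries and 50.3 and 51.0 at day 2 (log2 fold change 1.26 ± 0.18 (SE), limma adjusted p = 1.96e-05), and at 128 and 117 at day 4. The interferon-induced membrane protein gene Ifitm1 rose from 6.21 and 8.53 to 26.4 and 24.2 (1.66 ± 0.21, adjusted p = 4.51e-06). Dppa3 (Stella), an early germ cell marker, was low in both groups, at 1.27 and 1.22 in the EpiLC libraries and 1.89 and 2.31 at day 2, and was not called (log2 fold change 0.46 ± 0.30 (SE), limma adjusted p = 0.283). Of the alternative settings, only the fit with no variance trend called Dppa3 higher (limma adjusted p = 0.0442). The one listed gene that fell was Lin28a, an RNA-binding inhibitor of let-7 maturation, from 449 and 523 to 291 and 303 (-0.70 ± 0.10, adjusted p = 1.93e-05). Not called were Sox2, Pou5f1, Dnd1, Fut4, Alpl, Kdm1a and Dppa3. Fut4, at 0.127 and 0.222 in the EpiLC libraries and 0.629 and 2.04 at day 2 (adjusted p = 0.059), was called higher in 7 of 15 settings, edgeR and DESeq2 among them (adjusted p = 0.0223 and 0.0257), and its adjusted p reached 0.489 without day 2 replicate 2.

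**Figure D2:**
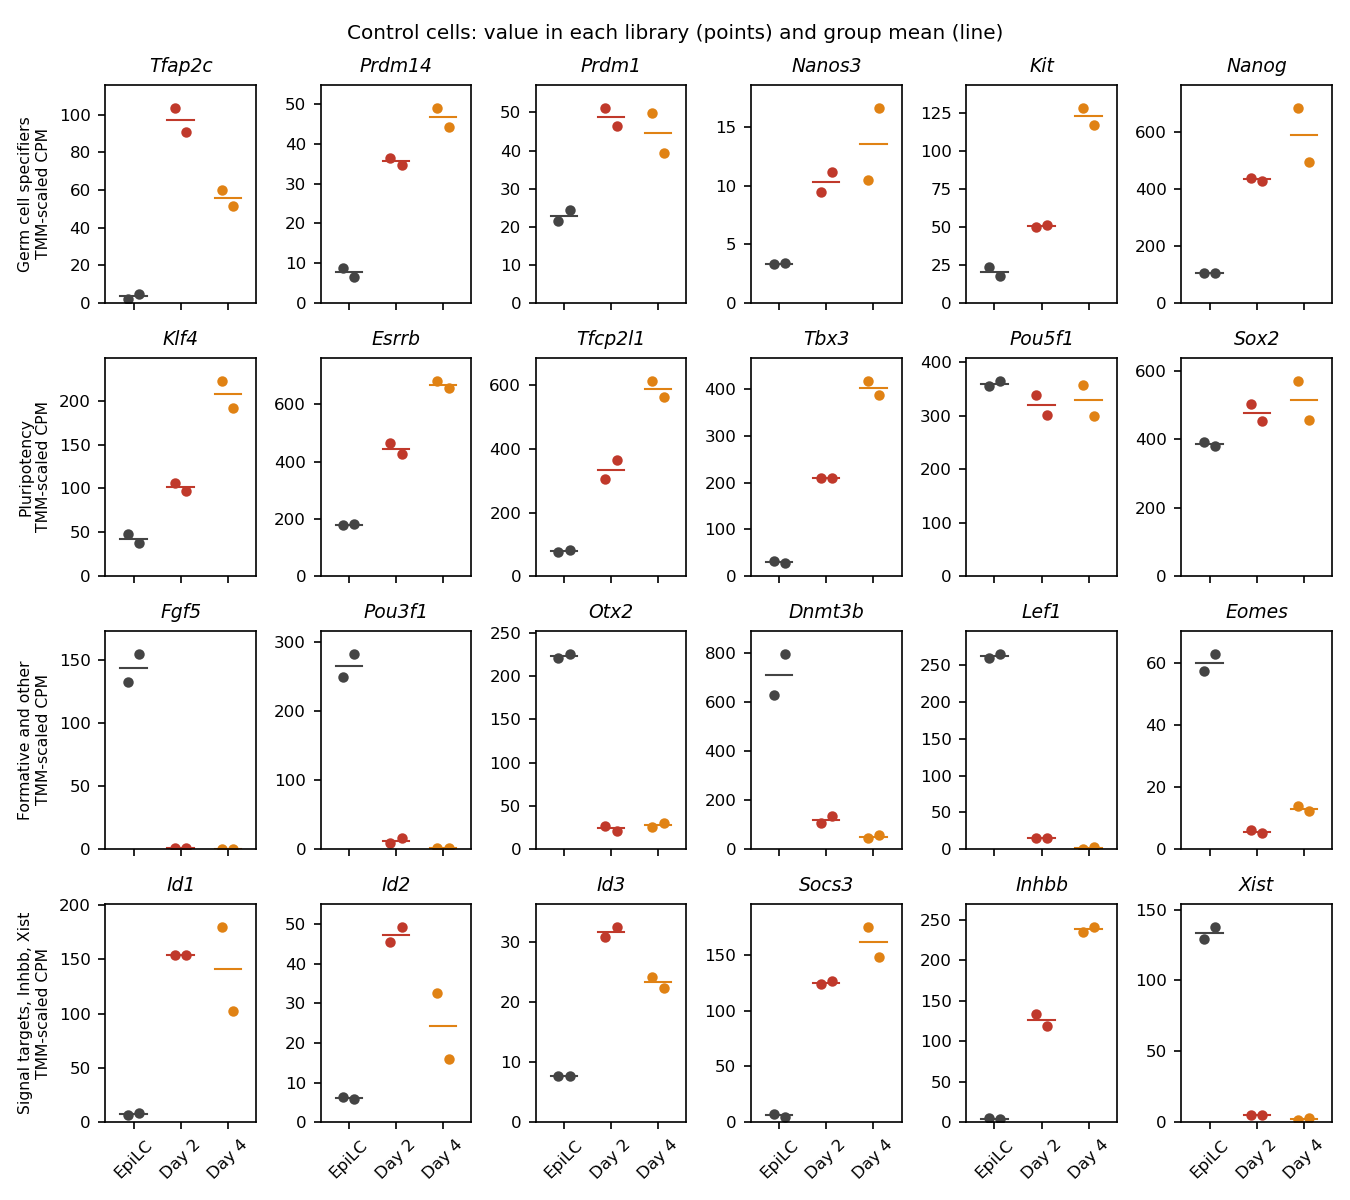
TMM-scaled CPM of 24 genes in each EpiLC, day 2 DMSO and day 4 DMSO library (points) with the group mean (line); each axis starts at 0. The EpiLC and day 2 libraries are separated in every panel; Pou5f1 (355.7 and 365.0 against 338.9 and 301.5) and Sox2 (391.8 and 380.5 against 502.9 and 452.2) differ least and were not called.

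The windows before the start sites of some of these genes give the sequence context of the step. Nanog and Nanos3 stand for germ cell genes that rose, and Fgf5 and Otx2 for formative genes that fell. They are the 2 called genes with the largest change in their list that have a first-listed RefSeq window free of annotated exons (build GRCm38.p6, 250 bases before the start, read 5′ to 3′). Of the 18 germ cell specifiers 13 and of the 24 formative genes 16 have a window. Among called genes, only 3 germ cell specifiers (Nanog, Nanos3 and Prdm1) and 9 formative genes have a window free of annotated exons. Tfap2c, Prdm14 and Pou3f1 have none in the table used here. Capitals mark GGATTA (the OTX motif) in Nanog, GCCNNNGGC (the AP-2 motif) in Nanos3 and Fgf5, and TCACACC (a T-box motif) in Fgf5, each on either strand.
Nanog, chr6:122707239-122707488, plus strand: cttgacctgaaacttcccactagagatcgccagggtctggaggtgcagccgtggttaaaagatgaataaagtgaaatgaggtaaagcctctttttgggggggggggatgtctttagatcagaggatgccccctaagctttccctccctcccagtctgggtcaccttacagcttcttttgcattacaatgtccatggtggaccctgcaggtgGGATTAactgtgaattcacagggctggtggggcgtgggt
Nanos3, chr8:84176553-84176802, minus strand: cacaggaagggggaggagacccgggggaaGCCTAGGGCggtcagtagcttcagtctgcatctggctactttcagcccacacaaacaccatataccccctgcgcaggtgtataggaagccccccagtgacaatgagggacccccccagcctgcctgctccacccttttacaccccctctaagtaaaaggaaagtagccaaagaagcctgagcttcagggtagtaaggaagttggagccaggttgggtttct
Fgf5, chr5:98253934-98254183, plus strand: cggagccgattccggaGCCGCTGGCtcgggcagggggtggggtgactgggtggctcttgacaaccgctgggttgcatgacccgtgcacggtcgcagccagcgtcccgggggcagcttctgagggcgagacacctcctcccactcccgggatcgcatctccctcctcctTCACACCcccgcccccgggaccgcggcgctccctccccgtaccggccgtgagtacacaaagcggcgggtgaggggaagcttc
Otx2, chr14:48667645-48667894, minus strand: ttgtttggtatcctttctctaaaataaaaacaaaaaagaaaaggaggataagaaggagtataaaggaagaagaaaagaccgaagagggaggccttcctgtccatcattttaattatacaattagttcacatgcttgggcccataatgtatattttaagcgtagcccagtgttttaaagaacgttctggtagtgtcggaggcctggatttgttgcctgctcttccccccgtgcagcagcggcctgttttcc
No letters of the 7 motifs searched were found in the Otx2 window. Over all genes most of the motifs divided little between directions. GCCNNNGGC stood in 26.1% of the 300-base windows of 1290 genes called higher, in 29.1% of those of 1768 genes called lower, in 25.4% of those of all 10751 tested genes with a window and in 16.5% of all 27025 windows. GGATTA stood in 5.7%, 5.1%, 5.4% and 7.2% in the same order, TCACACC in 3.1%, 2.6%, 3.3% and 4.0%, and TCAAAG (the TCF/LEF core) in 11.3%, 9.4%, 11.7% and 16.2%. CACGTG (the E-box) was at 10.6%, 10.6%, 10.3% and 7.2%, and GGCGCC at 21.6%, 25.1%, 21.7% and 12%. The widest gap was for TCCCGC (an E2F motif), in 32.8% of windows of higher genes and 42.2% of lower genes, against 36.4% of tested genes. Windows of lower genes also had more GC, with a median of 63.0% against 61.0% for higher genes and 61.0% for tested genes, and a CpG observed over expected ratio of 0.79 against 0.70. A match is a string of letters and no evidence of binding, and the share each motif has from base composition alone was not tested.

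Most naive pluripotency genes rose. Of 21 naive genes 16 were called higher and 2 lower (median 1.30), and 15 of the rises were called in every setting. Tbx3, a T-box factor of the naive network, rose from 32.4 and 27.7 to 210.4 and 209.7 (log2 fold change 2.77 ± 0.11 (SE), limma adjusted p = 5.28e-14). Tcl1, a coactivator of AKT, rose from 2.03 and 1.55 to 14.5 and 21.4 (2.75 ± 0.27, adjusted p = 8.72e-08). Tfcp2l1, a LIF-responsive factor, was at 76.7 and 83.4 in the EpiLC libraries and 304 and 366 at day 2 (2.05 ± 0.11, adjusted p = 8.3e-12). Klf5, Esrrb and Zfp42 were among the largest rises of genes above 100 in all 4 libraries: Klf5 was at 136 and 135 in the EpiLC libraries and 492 and 457 at day 2 (1.80 ± 0.11, adjusted p = 4.51e-11). Esrrb, an orphan nuclear receptor, was at 179 and 182 in the EpiLC libraries and 465 and 427 at day 2 (1.30 ± 0.10, adjusted p = 5.77e-09), and Zfp42 (Rex1) at 225 and 196 in the EpiLC libraries and 523 and 471 at day 2 (1.24 ± 0.11, adjusted p = 3.09e-08). Nanog, which belongs to both the naive and the germ cell list, was at 104 and 105 in the EpiLC libraries and 438 and 427 at day 2 (log2 fold change 2.04 ± 0.13 (SE), limma adjusted p = 2.13e-10), a 4.14-fold ratio. Klf4 rose from 47.7 and 37.3 to 106 and 97.3 (1.25 ± 0.13, adjusted p = 1.92e-07) and Nr5a2 from 38.3 and 29.4 to 111 and 104 (1.65 ± 0.13, adjusted p = 2.63e-09). Klf2 was also called higher, at 195 and 149 in the EpiLC libraries and 278 and 249 at day 2 (0.62 ± 0.14, adjusted p = 0.00158), but not without EpiLC replicate 2 (0.43, adjusted p = 0.0738). All of these were still higher in both day 4 libraries than in both EpiLC libraries.

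Of 15 shared pluripotency genes none was called higher and 9 were called lower (median -0.46). Pou5f1 (Oct4), required in naive, primed and germ cells alike, was at 356 and 365 in the EpiLC libraries and 339 and 302 at day 2 and was not called (log2 fold change -0.17 ± 0.11 (SE), limma adjusted p = 0.253). Sox2 was at 391.8 and 381 in the EpiLC libraries and 503 and 452 at day 2, with the day 2 libraries above both EpiLC libraries, and missed the threshold narrowly (log2 fold change 0.30 ± 0.11 (SE), limma adjusted p = 0.0501). It was called in 9 of 16 settings. Utf1, a chromatin factor of pluripotent cells, fell from 555 and 611 to 279 and 266 (-1.09 ± 0.10, adjusted p = 6.93e-08), and Fgf4 fell from 476 and 549 to 297 and 287 (-0.81 ± 0.11, adjusted p = 1.31e-05).

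The formative programme was lower in most of its genes. Of 24 formative and primed epiblast genes none was called higher and 20 were called lower (median -1.91), and 17 of the 20 were called in every setting. Fgf5, the classical marker of postimplantation epiblast, had the largest fall of all tested genes, from 132 and 155 to 1.13 and 1.36, a 115-fold lower mean (log2 fold change -6.004 ± 0.33 (SE), limma adjusted p = 1.31e-11). Pou3f1 (Oct6) fell from 249 and 283 to 8.93 and 16.1 (-4.35 ± 0.28, adjusted p = 2.13e-10). Otx2, a homeobox factor that restrains germ cell entry, fell from 221 and 225 to 27.04 and 20.9 (log2 fold change -3.18 ± 0.14 (SE), limma adjusted p = 5.37e-13). Otx2 overlaps the antisense gene Otx2os1, so part of its reads could be of either strand. Sox3 fell from 25.5 and 31.7 to 1.38 and 2.99 (-3.25 ± 0.34, adjusted p = 2.61e-07), Sall2 from 137 and 162 to 17.7 and 20.8 (-2.90 ± 0.16, adjusted p = 1.3e-11) and the kinase gene Pim2 from 147 and 183 to 20.5 and 23.9 (-2.84 ± 0.19, adjusted p = 3.31e-10). Zic2 and Foxd3, factors of primed pluripotency and neural crest, had log2 fold changes of -1.88 and -1.78 (adjusted p = 6.57e-10 and 3.36e-09). Igfbp2, a binding protein of insulin-like growth factors, fell from 436 and 431 to 116 and 108 (-1.94 ± 0.12, adjusted p = 1.26e-10).

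The de novo DNA methyltransferases fell, and so did Uhrf1. Of 16 tested DNA methylation genes 2 were called higher and 6 lower, beside 11.5% and 14.7% of all tested genes, so the higher share was near that of all genes. The list median was -0.24, and -0.02 after quantile normalization. Dnmt3a fell from 771 and 848 to 126 and 136 (-2.62 ± 0.10, adjusted p = 7.32e-14), and its reads may include those of the antisense gene Dnmt3aos. Dnmt3b fell from 628 and 794 to 106 and 136 (-2.55 ± 0.14, adjusted p = 1.97e-11), and Dnmt3l, their cofactor without catalytic activity, fell from 135 and 140.5 to 21.5 and 21.3 (-2.63 ± 0.16, adjusted p = 4.73e-11). The 3 genes thus dropped by nearly the same factor, with mean ratios of 6.19, 5.89 and 6.43. Uhrf1, which brings Dnmt1 to hemimethylated DNA, fell from 368 and 424 to 208 and 193 (-0.98 ± 0.10, adjusted p = 2.94e-07). Dnmt1, the maintenance enzyme, was at 194 and 211 in the EpiLC libraries and 154 and 166 at day 2, called at adjusted p = 0.0436 and in 5 of 16 settings (without any 1 of the 4 libraries its adjusted p lay between 0.0749 and 0.268). Among the TET dioxygenases, which oxidise 5-methylcytosine, Tet2 rose from 316 and 255 to 583 and 536 (0.97 ± 0.11, adjusted p = 6.88e-07), Tet3 fell from 85.05 and 93.8 to 40.4 and 50.6 (-0.97 ± 0.13, adjusted p = 1.07e-05), and Tet1 was not called at 2352 and 2398 in the EpiLC libraries and 2249 and 2203 at day 2 (log2 fold change -0.09 ± 0.11 (SE), limma adjusted p = 0.588). Gadd45b, linked to demethylation and stress, rose from 4.56 and 2.77 to 11.9 and 11.9 (1.499 ± 0.23, adjusted p = 3.99e-05).

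In the list of H3K9 and H3K27 methylation enzymes and their partner proteins L3mbtl2 had the lowest log2 fold change. Of its 25 members, each tested, 2 were called higher and 6 lower, 32% against 26.2% of all tested genes, with a median of -0.19 (0.006 after quantile normalization), so the share called was near that of all genes. Only L3mbtl2, Kdm4c and Kdm6b were called in every setting run. L3mbtl2, a subunit of the PRC1.6 repressor complex, fell from 303 and 291 to 105 and 105 (-1.49 ± 0.11, adjusted p = 2.63e-09). The H3K9 demethylase gene Kdm4c fell from 139 and 132 to 72.3 and 80.5 (-0.82 ± 0.12, adjusted p = 1.29e-05). Ehmt1 (GLP), an H3K9 methyltransferase, was at 139 and 137 in the EpiLC libraries and 114 and 128 at day 2 and was not called (log2 fold change -0.19 ± 0.12 (SE), limma adjusted p = 0.262).

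Most tested BMP target genes were called higher, while BMP ligands and receptors were mostly lower or not called. BMP ligands signal through type I and type II receptor kinases to SMAD1, SMAD5 and SMAD9, which switch on the Id genes, inhibitors of basic helix-loop-helix factors. Of 12 tested BMP targets 8 were called higher, all 8 of them in every setting, and 1 lower (median 1.74). Id1 was at 6.84 and 8.86 in the EpiLC libraries and 154 and 154 at day 2, a 19.6-fold ratio (log2 fold change 4.14 ± 0.18 (SE), limma adjusted p = 1.88e-13). Id2 rose from 6.34 and 5.98 to 45.4 and 49.3 (2.75 ± 0.21, adjusted p = 1.78e-09), Id3 from 7.73 and 7.75 to 30.8 and 32.4 (1.899 ± 0.14, adjusted p = 2.63e-09) and Id4 from 3.29 and 2.66 to 11.6 and 10.3 (1.59 ± 0.24, adjusted p = 4.02e-05). All 4 Id genes were thus higher in both day 2 libraries, Id1 the most. The inhibitory SMAD gene Smad6 rose from 13.7 and 11.96 to 26.7 and 27.4 (1.02 ± 0.18, adjusted p = 0.000246), the homeobox gene Msx2 from 0.760 and 0.332 to 8.43 and 6.38 (2.44 ± 0.26, adjusted p = 3.4e-07) and Gata2 from 0.634 and 0.665 to 24.4 and 22.0 (log2 fold change 3.87 ± 0.20 (SE), limma adjusted p = 5.21e-12). The pseudoreceptor gene Bambi was the called fall (-0.67, adjusted p = 0.0294), and it was not called without any 1 of the 4 libraries (adjusted p from 0.0687 to 0.219). Of 18 tested BMP ligand, receptor and antagonist genes 3 were called higher and 8 lower (median -0.37), of which 1 rise and 3 falls held in every setting. Bmp4 itself rose from 11.03 and 12.6 to 31.4 and 24.4 (1.17 ± 0.20, adjusted p = 0.000116). Bmp8b fell from 5.07 and 5.21 to 1.38 and 1.22 (-1.42 ± 0.28, adjusted p = 0.000623), and the type I receptor gene Acvr1 fell from 18.5 and 22.4 to 8.43 and 8.01 (-1.21 ± 0.27, adjusted p = 0.00162).

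In the list of LIF, SCF and EGF signalling genes Socs3, Stat3 and Junb rose and Dusp4, Spry1 and Kitl fell. LIF acts through its receptor and gp130 (Il6st) on STAT3, and EGF and FGF act on ERK. Of 20 tested genes of these pathways 6 were called higher and 7 lower (median -0.05, and 0.15 after quantile normalization). Socs3, the feedback inhibitor that STAT3 induces, was at 7.22 and 5.21 in the EpiLC libraries and 124 and 126 at day 2, a 20.1-fold ratio (log2 fold change 4.14 ± 0.13 (SE), limma adjusted p = 2.56e-15). Stat3 rose from 26.2 and 26.3 to 69.9 and 69.1 (1.37 ± 0.13, adjusted p = 4.23e-08), and Il6st had a log2 fold change of 0.87 (adjusted p = 1.42e-06). Junb, an AP-1 subunit, rose from 23.8 and 26.1 to 106 and 102 (2.01 ± 0.11, adjusted p = 9.88e-12). Bcl3, an IκB family coactivator outside the list and among the 12 largest rises, rose from 1.901 and 1.33 to 43.3 and 44.0 (4.10 ± 0.18, adjusted p = 3.72e-13). The phosphatase gene Dusp4, a feedback inhibitor of ERK, fell from 182 and 213 to 17.7 and 25.0 (-3.17 ± 0.20, adjusted p = 1.68e-10). Spry1, another feedback inhibitor, fell from 53.6 and 61.0 to 29.8 and 24.2 (-1.06 ± 0.17, adjusted p = 6.44e-05), and Kitl, which encodes SCF, fell from 9.76 and 9.86 to 3.14 and 2.71 (-1.46 ± 0.31, adjusted p = 0.00106).

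In the WNT pathway the sharpest fall was in Lef1. WNT ligands bind Frizzled receptors and stabilise beta-catenin, which activates targets with TCF and LEF factors. Lef1 fell from 259 and 265 to 15.1 and 14.7, a 17.6-fold lower mean (log2 fold change -4.05 ± 0.26 (SE), limma adjusted p = 1.29e-10). Axin2, the classical feedback target, fell from 43.2 and 39.6 to 7.42 and 7.60 (-2.31 ± 0.21, adjusted p = 2.26e-08), and Tcf7 fell from 80.4 and 89.2 to 42.8 and 43.4 (-0.96 ± 0.12, adjusted p = 2.97e-06). The secreted antagonist gene Sfrp1 rose from 17.0 and 19.6 to 56.5 and 42.2 (1.37 ± 0.19, adjusted p = 1.17e-05). In all, 2 of 17 tested targets and antagonists were called higher, near the 11.5% of all tested genes, and 5 lower, beside 14.7% (median -0.27). Of 25 tested ligands and receptors 5 were called higher and 10 lower (median -0.44), with all 5 rises and 5 of the falls called in every setting. Among the receptors Fzd5 rose from 95.3 and 106 to 248 and 254 (1.31 ± 0.10, adjusted p = 2.87e-09), while Fzd2 fell from 56.4 and 59.0 to 16.7 and 14.9 (-1.80 ± 0.24, adjusted p = 6.38e-06) and Fzd7 from 359.7 and 425 to 149 and 158 (-1.34 ± 0.11, adjusted p = 8.45e-09). Among the ligands Wnt7b rose from 2.41 and 4.88 to 15.5 and 24.3 (2.19 ± 0.24, adjusted p = 5.22e-07) and Wnt3a from 0 and 0.111 to 1.51 and 2.17 (1.42 ± 0.33, adjusted p = 0.00257), both from low levels. Wnt3, a germ cell competence signal in the embryo, was low and not called, at 0.507 and 1.44 in the EpiLC libraries and 1.01 and 2.99 at day 2 (log2 fold change 0.56 ± 0.34 (SE), limma adjusted p = 0.251).

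In the Nodal and Activin pathway Inhbb, the beta B subunit of inhibin and activin B, had the third largest rise of the genes ranked. It was at 4.94 and 4.21 in the EpiLC libraries and 133 and 118 at day 2, a 27.5-fold ratio (log2 fold change 4.51 ± 0.14 (SE), limma adjusted p = 1.72e-15), and at 235 and 241 at day 4. Over the pathway, 2 of 17 tested members passed as higher and 6 as lower (median -0.26), beside 11.5% and 14.7% of all tested genes, so the higher share was near that of all genes. Nodal fell from 114 and 123 to 75.6 and 79.8 (-0.60 ± 0.13, adjusted p = 0.00124). The SMAD corepressor gene Skil, a Nodal target, fell from 799 and 885 to 342 and 378 (-1.22 ± 0.11, adjusted p = 2.54e-08), and Foxh1, the SMAD2 partner, fell from 95.7 and 109 to 49.2 and 47.1 (-1.07 ± 0.13, adjusted p = 1.96e-06). Lefty2, another target, was not called at 238 and 226 in the EpiLC libraries and 266 and 222 at day 2 (log2 fold change 0.07 ± 0.12 (SE), limma adjusted p = 0.73).

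Lineage genes of the germ layers were mostly below the range of the test. Of 36 primitive streak and mesoderm genes 21 were not tested, and none of those exceeded 2.33 in any of the 4 libraries. T (Brachyury), which marks the streak and nascent mesoderm, was at 0.38 and 0 in EpiLCs and 0.126 and 0.136 at day 2, which is at most 3 reads a library. Mesp1 was at 0, 0, 0.252 and 0 in the same order, and Mixl1 at 1.14, 2.33, 0.629 and 0.543. Of the 15 tested, 4 were called higher and 3 lower, beside 11.5% and 14.7% of all tested genes, so the lower share was near that of all genes. Eomes, a T-box factor of streak and endoderm, fell from 57.5 and 63.0 to 6.16 and 5.16 (log2 fold change -3.21 ± 0.20 (SE), limma adjusted p = 9.25e-11). Fgf17 rose from 4.18 and 3.21 to 34.2 and 24.4 (2.68 ± 0.26, adjusted p = 7.57e-08). The other genes called in every setting were Msx2 and Gata2 (higher) and Snai1 (lower).

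Markers of other cell types were read for the whole of each list. For endoderm 7 of 18 genes were tested, with Otx2 called lower and Krt19 higher (28.6%, near the 26.2% of all tested genes), and the summed level of the list was 236 and 243 in EpiLCs and 49 and 43.3 at day 2, a drop that Otx2 carries (220.9 and 225.3 to 27 and 20.9). Sox17 was at 0, 0.111, 0.503 and 0.271 and Foxa2 at 0.507, 0.111, 0 and 0. For trophoblast 15 of 19 were tested, 6 called higher and 3 lower, with a median of 0.11 (-0.02 after quantile normalization), and the sum was 101 and 110.5 against 204 and 218, a rise that Tfap2c carries (2.28 and 4.99 to 104 and 90.9). Apart from Tfap2c, Gata3 (1.65 and 1.66 to 6.29 and 7.19), Krt7 (0 and 0 to 2.52 and 4.34, at least 9.63-fold higher against a floor of 3 reads per library) and Wnt7b were among those called higher in every setting, Bmp8b, Krt18 and Tfap2a were the 3 called lower (log2 fold changes -1.42, -0.98 and -0.84; Krt18 was not called without EpiLC replicate 2, adjusted p = 0.065, nor Tfap2a without EpiLC replicate 1, adjusted p = 0.0932), while Elf5, Plac1, Tpbpa and Prl3d1 stayed at or under 1.76. Krt7 passed the filter only through PGCLC libraries, which include the day 2 group where it was high. For neural genes 7 of 18 were tested, 4 called higher and 2 lower (median 0.92), and the sum was 133 and 146 against 156 and 167. Of these calls 3 rises and 1 fall held in every setting, and those of Map2 and Nkx6-2 did not. Pax6 rose from 0.760 and 0.776 to 7.42 and 8.28 (2.32 ± 0.28, adjusted p = 1.74e-06) and Nes from 16.1 and 18.2 to 49.4 and 50.9 (1.499 ± 0.14, adjusted p = 3.05e-08), Sox11 fell from 82.1 and 87.7 to 32.7 and 39.1 (-1.23 ± 0.19, adjusted p = 3.36e-05), and Sox1 was not called (adjusted p = 0.154). The 11 untested neural genes were at or under 0.507.

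For feeder fibroblasts 6 of 12 genes were tested, 1 called higher and 3 lower, of which Dcn alone was called in every setting that gave a value (14, with none at a mean of at least 5 or without EpiLC replicate 2). Acta2 was not called without EpiLC replicate 1 (adjusted p = 0.0841), Fn1 was called in 15 of 16 settings, and Pdgfrb was not called without any 1 of the 4 libraries (adjusted p from 0.0544 to 0.194). The list median was -0.35, and 0.05 without EpiLC replicate 2, and the summed level, most of it Fn1, was 747 and 722 in EpiLCs against 509 and 505 at day 2. Dcn, a proteoglycan of connective tissue, was at 6.21 and 8.53 in EpiLCs and at 0 in both day 2 libraries, at least 18.8-fold lower (-3.05 ± 0.32, adjusted p = 2.94e-07). Its pass of the filter rested on EpiLC replicate 2, in the group where it was high. With no filter on low values Dcn was called at limma adjusted p = 0.000114. Col1a2, Col3a1, Postn, Lum, Fap and Twist2 were at or under 0.95. Of 42 Hox and Cdx genes 11 were tested, 4 called higher and 2 lower (median 0.23), and the other 31 stayed at or under 2.04. Of the calls, 2 rises and 1 fall held in every setting that gave a value. The largest change was the fall of Hoxd8, from 3.29 and 2.99 to 0.126 and 0.136 (-1.87 ± 0.32, adjusted p = 0.000133), with 1 read in each day 2 library. Hoxd8 passed the filter only through the EpiLC libraries, where it was high. It gave no value without EpiLC replicate 1, without EpiLC replicate 2 or at a mean of at least 5. When low genes were tested too, Hoxd8 was still called (limma adjusted p = 0.00238). Hoxa3 rose from 1.901 and 2.10 to 6.04 and 7.46 (1.36 ± 0.30, adjusted p = 0.00148), and it overlaps several antisense transcripts. Hoxc12 went from 0 in both EpiLC libraries to 1.64 and 1.63, at least 4.58-fold higher. It passed the filter only through PGCLC libraries, which include the day 2 group where it was high. Whether other cell types took part in any of the changes above was not tested.

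Among genes of the later germ line Rhox9, Rhox6 and Piwil2 rose and Rhox5 fell. Of 20 tested, 3 were called higher and 1 lower, 20% and so near the 26.2% of all tested genes (median 0.28). Rhox9, Rhox6 and Rhox5 are X-linked homeobox genes. Rhox5 had group means of 29.97 in EpiLCs and 16.17 at day 2, and the lowest log2 fold change of the list (-0.845). Its call did not hold in every setting. The log2 fold change was -0.676 without EpiLC replicate 2 and -0.743 without day 2 replicate 1. Rhox9 rose from 0.253 and 0.665 to 17.4 and 16.4 (log2 fold change 3.63 ± 0.28 (SE), limma adjusted p = 3.07e-09) and Rhox6 from 2.15 and 1.99 to 12.8 and 16.3 (2.33 ± 0.30, adjusted p = 5.36e-06). Piwil2, which binds piRNAs, rose from 5.07 and 6.87 to 15.7 and 14.7 (1.23 ± 0.20, adjusted p = 0.000103). Dazl and Ddx4, markers of germ cells after they reach the gonad, were not called, at 17.1 and 19.8 in the EpiLC libraries and 12.6 and 16.3 at day 2 (adjusted p = 0.206) and 2.54 and 3.54 in the EpiLC libraries and 5.91 and 5.02 at day 2 (adjusted p = 0.0616). Mael, a piRNA pathway gene, was not called either, at 3.42 and 3.77 in the EpiLC libraries and 2.89 and 1.63 at day 2.

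In the adhesion list the numbers of higher and lower genes were equal, 9 and 9 of 28 tested (median -0.13), of which 5 and 6 held in every setting. Cdh2 (N-cadherin) fell from 16.4 and 12.7 to 1.13 and 1.76 (-2.67 ± 0.29, adjusted p = 5.04e-07), Vim (vimentin) from 84.0 and 91.4 to 41.9 and 40.7 (-1.07 ± 0.14, adjusted p = 3.41e-06) and Ocln (occludin) from 31.2 and 30.8 to 14.8 and 13.8 (-1.06 ± 0.17, adjusted p = 6.89e-05). Lama1, the alpha 1 chain of laminin and one of the 12 largest rises, went from 1.14 and 0.554 to 22.1 and 22.0 (log2 fold change 3.66 ± 0.24 (SE), limma adjusted p = 2.25e-10). Esrp2, a splicing factor of epithelia, rose from 14.4 and 17.5 to 50.3 and 46.3 (1.54 ± 0.14, adjusted p = 3.73e-08), Cldn4 from 68.2 and 78.9 to 147 and 164 (1.07 ± 0.12, adjusted p = 6.62e-07) and Zeb2, a repressor of E-cadherin, from 2.41 and 3.88 to 10.6 and 8.14 (1.33 ± 0.30, adjusted p = 0.00179). The list thus held both epithelial and mesenchymal genes on each side. Cdh1 (E-cadherin) was at 713 and 805 in the EpiLC libraries and 535 and 544 at day 2 (-0.49 ± 0.11, adjusted p = 0.00149), called in 15 of 16 settings (largest adjusted p = 0.271).

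Cholesterol synthesis genes were lower nearly without exception. Of 23 genes 22 were called lower, none higher, with a median of -1.11, and 16 of the 22 held in every setting. Insig1, which retains the SREBP complex in the endoplasmic reticulum, fell from 117 and 114 to 30.4 and 33.9 (log2 fold change -1.82 ± 0.18 (SE), limma adjusted p = 1.67e-07). Hmgcs1, the enzyme before the rate-limiting step, fell from 478 and 499 to 203 and 197 (-1.28 ± 0.10, adjusted p = 5.41e-09), Cyp51 from 200.009 and 194 to 78.2 and 73.4 (-1.37 ± 0.12, adjusted p = 1.72e-08) and Dhcr7 from 104 and 116 to 38.4 and 51.7 (-1.29 ± 0.14, adjusted p = 5.21e-07). Scd2, a desaturase of fatty acids outside the list, had the largest fall of the genes above 100 in all 4 libraries, from 1189 and 1285 to 200.1 and 191 (log2 fold change -2.65 ± 0.11 (SE), limma adjusted p = 8.55e-14).

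Glycolysis and hypoxia genes were lower in most cases. Of 30 genes 20 were called lower and 4 higher (median -0.89), with 14 of the falls and 3 of the rises called in every setting. Slc16a3, the lactate exporter MCT4, fell from 402 and 453 to 36.5 and 33.2, a 12.3-fold lower mean (log2 fold change -3.58 ± 0.19 (SE), limma adjusted p = 1.01e-11). Bnip3, a mitophagy receptor, fell from 46.9 and 44.98 to 13.6 and 11.4 (-1.80 ± 0.22, adjusted p = 2.29e-06), Pdk1, which slows entry of pyruvate into mitochondria, from 377 and 384 to 142 and 144 (-1.41 ± 0.11, adjusted p = 4.71e-09), and Ldha from 394 and 427 to 189 and 186 (-1.12 ± 0.11, adjusted p = 1.37e-07). Egln3, an oxygen sensor and itself a hypoxia target, fell from 32.8 and 39.4 to 9.05 and 6.24 (-2.12 ± 0.28, adjusted p = 5.15e-06). Vegfa, another hypoxia target, went the other way, from 6.34 and 8.64 to 35.0 and 27.4 (log2 fold change 1.93 ± 0.19 (SE), limma adjusted p = 1.05e-07), and so did the hexokinase gene Hk2 (0.71, adjusted p = 6.24e-05).

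Genes of the ATF4 response to amino acid shortage rose in part. Of 22 genes 11 were called higher and 2 lower (median 0.61), and 9 of the rises held in every setting. Chac1, a glutathione-degrading enzyme, rose from 4.56 and 4.32 to 30.3 and 25.5 (log2 fold change 2.40 ± 0.23 (SE), limma adjusted p = 5.59e-08). Nupr1 rose from 1.65 and 2.10 to 13.7 and 10.7 (2.19 ± 0.29, adjusted p = 6.23e-06), the pseudokinase gene Trib3 from 8.62 and 11.9 to 39.5 and 41.9 (1.91 ± 0.18, adjusted p = 4.62e-08) and Psat1, an enzyme of serine synthesis, from 110.3 and 123 to 264 and 272 (1.20 ± 0.12, adjusted p = 1.01e-07). Aars, a tRNA synthetase of the list, was not called at 237 and 263 in the EpiLC libraries and 260.2 and 272 at day 2 (adjusted p = 0.556).

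Most cell cycle genes were lower. Of 34 genes 24 were called lower and 2 higher (median -0.47), and 9 of the falls and 1 rise held in every setting. Cdk6 fell from 123 and 128 to 38.4 and 37.7 (-1.70 ± 0.16, adjusted p = 4.59e-08), Ccnd1 (cyclin D1) from 262 and 272 to 145 and 134 (-0.93 ± 0.12, adjusted p = 5e-06), Pcna from 88.3 and 102 to 50.2 and 43.3 (-1.01 ± 0.14, adjusted p = 1.11e-05) and the replicative helicase gene Mcm4 from 268 and 286 to 157 and 144 (-0.88 ± 0.11, adjusted p = 3.96e-06). Ccnd2 (cyclin D2) rose from 3.17 and 3.21 to 18.7 and 19.5 (log2 fold change 2.27 ± 0.17 (SE), limma adjusted p = 1.84e-09). Cyclin D1 and cyclin D2 thus moved in opposite directions.

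**Figure D3:**
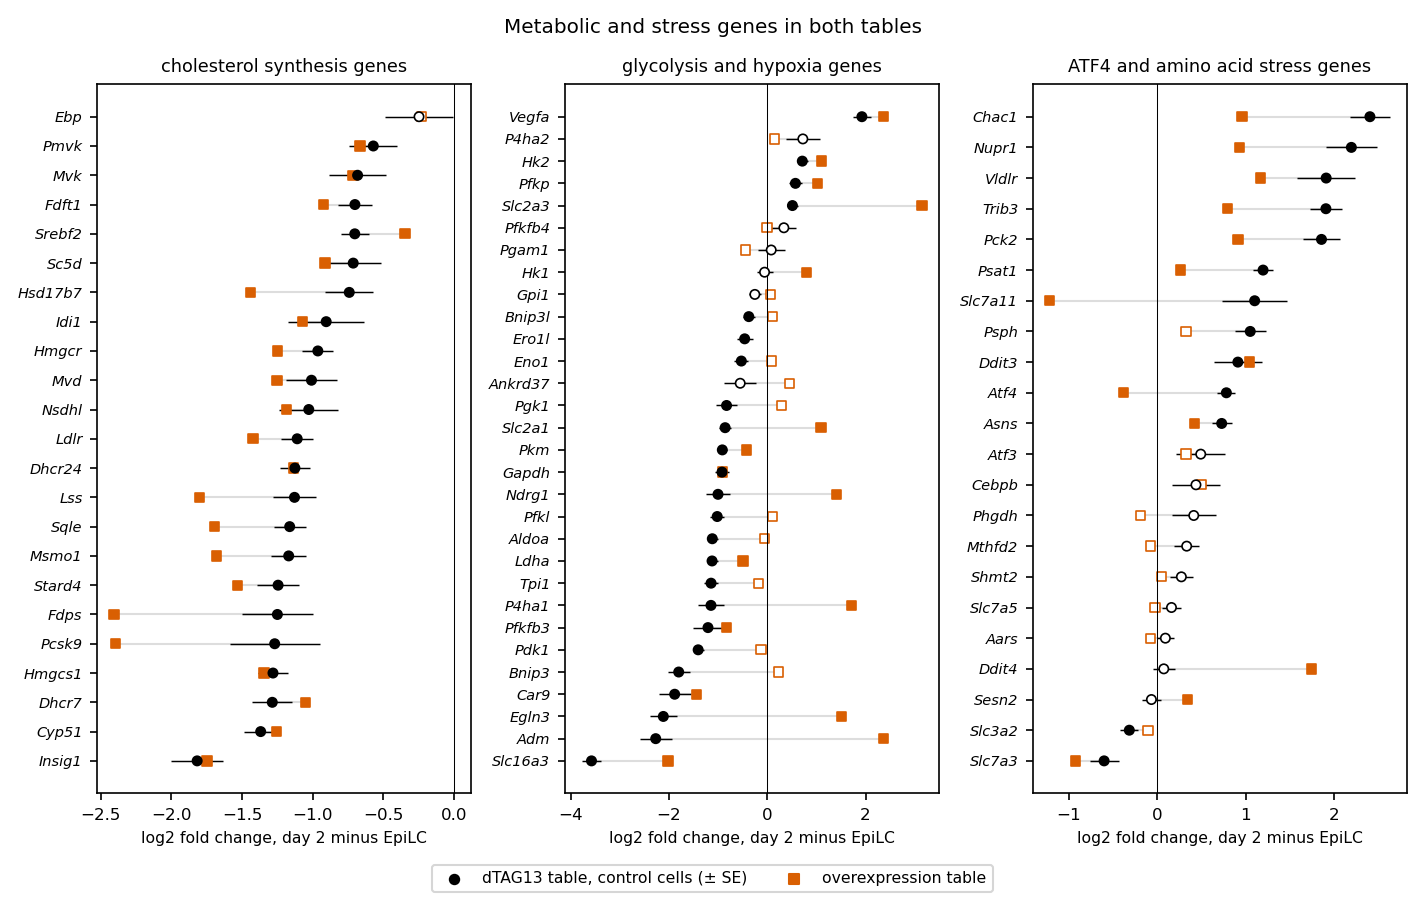
Log2 fold change, day 2 minus EpiLC, of each tested cholesterol, glycolysis and hypoxia, and ATF4 gene in control cells of the dTAG13 table (black circles, ± SE) and in the overexpression table (orange squares). Filled symbols passed an adjusted p of 0.05. The cholesterol genes lie left of 0 in both tables, while Adm, Egln3, P4ha1, Ndrg1 and Slc2a1 are among the genes on opposite sides. The glycolysis and hypoxia median is -0.887 in the control cells and 0.112 in the overexpression table.

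Single imprinted genes and Xist changed by a large factor. Of 27 tested imprinted genes 8 were called higher and 5 lower (median 0.14), beside 11.5% and 14.7% of all tested genes. The lower share was thus near that of all genes, and 5 of the rises and 2 of the falls held in every setting. Of the 26 tested in the overexpression table, 7 were called higher and 14 lower (median -0.45), beside 24.1% and 22.1% of all genes there, and of those called in both experiments 7 matched in direction and 5 did not, beside 8.42% opposite over all genes. H19, the maternally expressed noncoding RNA, rose from 5.58 and 3.99 to 34.5 and 25.1 (log2 fold change 2.41 ± 0.17 (SE), limma adjusted p = 4.94e-10), and its neighbour Igf2 rose from 1.65 and 1.44 to 9.05 and 15.2 (2.33 ± 0.30, adjusted p = 5e-06). Igf2 was low throughout and overlaps a predicted gene. Peg3 rose from 135 and 147 to 239 and 245 (0.77 ± 0.10, adjusted p = 6.55e-06), and Snrpn fell from 38.3 and 44.0 to 13.6 and 11.3 (-1.65 ± 0.20, adjusted p = 1.7e-06), with reads that may be shared with the overlapping Snurf. Peg10 fell from 2504 and 2678 to 816 and 1117 (-1.44 ± 0.20, adjusted p = 1.43e-05). Xist, the RNA that coats the inactive X chromosome, fell from 129 and 138 to 5.41 and 5.02, a 25.6-fold lower mean (log2 fold change -4.43 ± 0.16 (SE), limma adjusted p = 2.12e-14). It was at 1.72 and 2.99 in day 4 DMSO cells but at 250.2 and 253 in the day 2 dTAG13 libraries. Tsix, its antisense partner, was called higher (0.52, adjusted p = 0.0208), but not without EpiLC replicate 2 (0.35, adjusted p = 0.279) or day 2 replicate 1 (0.40, adjusted p = 0.185), and reads of the 2 genes overlap. The Y-linked genes Ddx3y, Uty, Kdm5d, Eif2s3y and Zfy1 were at 0 in all 4 libraries.

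Genes of the X chromosome had a median slightly below that of the autosomes. The median log2 fold change of its 567 tested genes was -0.09 against -0.02 for the autosomes, an offset of -0.064 that lay between -0.098 and -0.052 over the 7 alternatives run for it (another pseudocount, a higher filter, median-ratio scaling and each of the 4 libraries left out). The 19 autosomes had offsets from -0.055 (chromosome 13) to 0.043 (chromosome 1), and X was lower than each of them on the deposited scale. Without EpiLC replicate 2 chromosome 13 was at -0.060 and X at -0.054, and without day 2 replicate 2 chromosome 13 was at -0.069, chromosome 6 at -0.053 and X at -0.052. As a level, the median log2 value of 343 X genes with a mean of at least 10 minus that of 9456 autosomal genes was -0.26 and -0.25 in the EpiLC libraries and -0.35 and -0.377 at day 2. Both day 2 libraries thus lay below both EpiLC libraries, which was not tested. On X 28.7% of genes were called, 68 higher and 95 lower, against 26.2% of all tested genes.

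**Figure D4:**
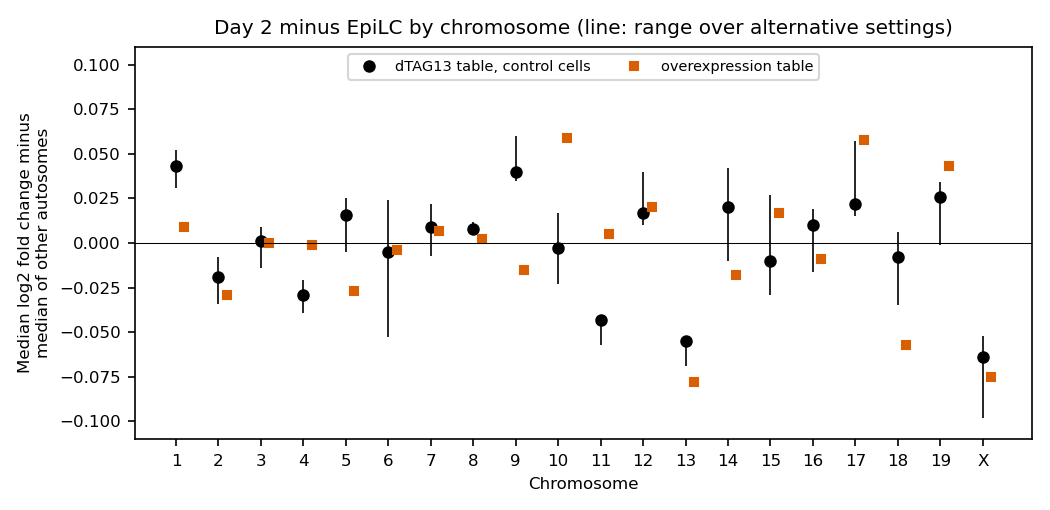
Median log2 fold change of each chromosome, day 2 minus EpiLC, minus the median of the other autosomes, in control cells of the dTAG13 table (black, with the range over those 7 alternatives as a line) and in the overexpression table (orange). In the control cells X is at -0.064, and it is at -0.075 in the overexpression table, where chromosome 13 is at -0.078.

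Among the 12 largest rises and 12 largest falls of genes with a mean of at least 10, most have been described above by list. The largest rise was in Gm10800, a predicted gene model, from 3.93 and 11.1 to 330.1 and 327 (log2 fold change 5.42 ± 0.25 (SE), limma adjusted p = 9.25e-13), with Gm10801 (4.63) and Gm21738 (4.15) beside it. These 3 are models whose reads may come from near-identical copies, so their values are uncertain. Gm10800 was at 2404 and 1949.8 in the day 2 dTAG13 libraries. Aqp3, a channel for water and glycerol, rose from 3.42 and 2.88 to 71.2 and 75.9 (4.17 ± 0.15, adjusted p = 2.12e-14). Of the falls, Nefl (neurofilament light chain) went from 177 and 163 to 6.79 and 5.16 (log2 fold change -4.63 ± 0.22 (SE), limma adjusted p = 1.02e-12). The zinc finger gene Zfp467 fell from 49.7 and 50.9 to 2.01 and 3.39 (-3.82 ± 0.29, adjusted p = 2.63e-09), the membrane protease gene Mmp25 from 52.9 and 70.2 to 3.14 and 4.07 (-3.76 ± 0.32, adjusted p = 1.35e-08), the ryanodine receptor gene Ryr3 from 70.7 and 61.7 to 6.54 and 3.12 (-3.59 ± 0.34, adjusted p = 5.99e-08) and Ndnf from 32.1 and 34.0 to 2.26 and 1.76 (-3.50 ± 0.29, adjusted p = 7.98e-09). Fosb, an immediate early gene of the AP-1 family, fell from 143 and 109 to 10.7 and 8.14 (log2 fold change -3.61 ± 0.28 (SE), limma adjusted p = 3.85e-09). Apoe, which carries lipids, was among the largest rises at high level, from 106 and 119 to 292 and 246 (1.25 ± 0.12, adjusted p = 1.01e-07), and Ttn (titin) among the largest falls, from 860.2 and 738 to 187 and 173 (-2.14 ± 0.14, adjusted p = 1.93e-10).

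A second experiment of the series holds the same step in other libraries. It has EpiLC and day 2 libraries of 1 empty-vector line and 2 Tex10 overexpression clones of the same strain, in a table scaled on its own, and no library is shared. No test was run across the tables. With line as a covariate, 7059 of 15255 genes were called there (46.3%), 24.1% higher and 22.1% lower at day 2. Of 14388 genes tested in both tables, 4030 were called in the control cells of the dTAG13 table and 2754 in both. Of those 2754, 1125 were higher in both and 1397 lower in both, and 62 and 170 went opposite ways (8.42%). The genes called in the same direction were 62.6% of the 4030 and 37.1% of the 6802 called in the overexpression table. Over the genes of both tables the log2 fold changes correlated at r = 0.642 (Spearman 0.532, n = 14388); genes do not stand for replicates.

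**Figure D5:**
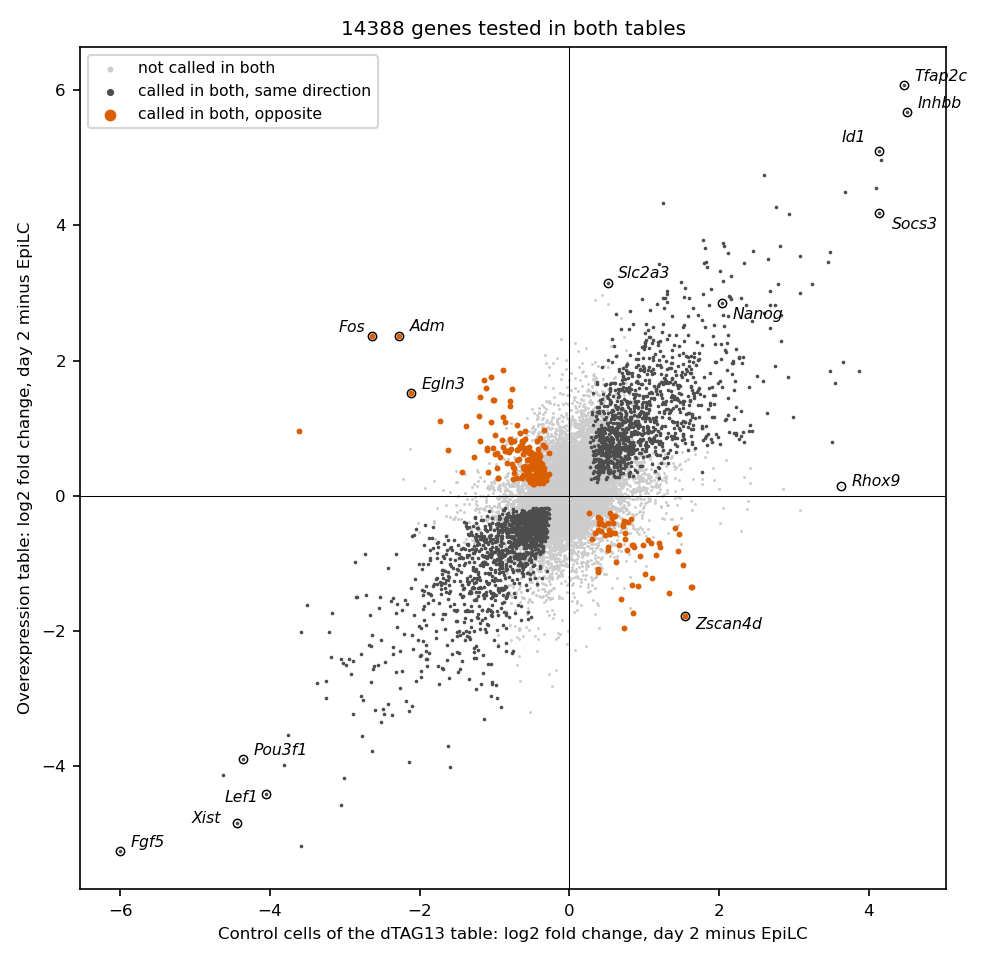
Log2 fold change, day 2 minus EpiLC, of 14388 genes in control cells of the dTAG13 table (horizontal) and in the overexpression table (vertical). Dark points were called in both in the same direction and orange points in opposite directions; Tfap2c, Inhbb and Id1 lie at the upper right, Fgf5, Xist and Lef1 at the lower left, and Fos, Adm and Egln3 at the upper left.

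Among the germ cell specifiers called in both tables the direction matched for 11 and differed for 0, and among the formative genes it matched for 16 and differed for 1. The 1 was Epha2, a receptor of ephrins, named after its values were seen, at 149 and 158 in the EpiLC libraries and 128 and 110.1 at day 2 (log2 fold change -0.37, called in 10 of 16 settings) and at 90.9, 85.6 and 86.4 in EpiLCs and 144, 90.0 and 94.6 at day 2 in the overexpression table (0.28, adjusted p = 0.0222). Tfap2c was at 0.751, 2.54 and 2.20 in EpiLCs and 164, 188 and 192 at day 2 (log2 fold change 6.07, adjusted p = 1.13e-20), and Fgf5 had a log2 fold change of -5.25 and Xist of -4.84. Of the 18 germ cell specifiers 13 were called higher there and 1 lower, of the 21 naive genes 18 and 2, and of the 24 formative genes 3 and 18. All 22 cholesterol genes called lower in the control cells were called lower there too (median -1.25), as were 9 of the 9 BMP targets called in the control cells in their own direction. Rhox9, in contrast, was at 0.901, 0.149 and 0.275 in EpiLCs and 1.01, 0.154 and 0.606 at day 2 and was not called (adjusted p = 0.751). Of the later germ cell genes 10 of 17 were called lower there and 5 higher. Among the 20 LIF, SCF and EGF signalling genes 13 were called higher there and 5 lower (median 1.23, against -0.05 in the control cells). Where a signalling gene was called in both tables, 10 matched in direction and 2 did not. Of 29 glycolysis and hypoxia genes 10 were called higher and 6 lower there (median 0.11), beside 24.1% and 22.1% of all genes of that table, and 5 of those called in both tables went opposite ways. Egln3 was at 10.7, 10.3 and 13.2 in EpiLCs and 40.8, 31.6 and 31.2 at day 2 (1.52, adjusted p = 7.21e-09). Fosb was at 0.901, 0.447 and 0.137 in EpiLCs and 0.718, 3.08 and 2.27 at day 2, so its EpiLC level there was far below that of the dTAG13 table. Zscan4d, a marker of cells that resemble the early cleavage embryo, was at 0 in both EpiLC libraries of the dTAG13 table. In the overexpression table it was at 120.3, 66.8 and 59.1 in EpiLCs and 27.4, 20.2 and 19.2 at day 2. The lines, the scaling and the Tex10 constructs differ between the tables, the labels do not say which libraries share a kit or batch, and the part of these in the differences was not tested.

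The authors' deposited table lists its own comparison of the same 4 libraries. It gives 2197 genes with an FDR under 0.05, 1144 higher and 1053 lower at day 2, and the test behind it is not given in the sources used here. Of the 2066 that were also tested here, 2048 were called in the same direction, 18 were not called and 0 were opposite.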

How the data were processed

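RNA-seq libraries of 2 EpiLC and 2 day 2 DMSO samples were analysed with the other 6 libraries of their table, and 12 libraries of the overexpression table. RNA was taken up in Trizol, and the labels' protocols name a NuGEN Ovation kit for batches 1 and 3 and a Tecan Universal Plus kit for batch 2, without saying which libraries form a batch. The submitters' processing notes name Bowtie2 2.3.4.3, SAMtools 1.9, HTSeq 0.11.2, edgeR 3.26.8 and mm10, with no role or order. The deposited values are a signal per gene (TMM-scaled CPM): the deposited tables are named for TMM, and whole multiples and library sums other than a round total show the scaling; filters are not given in the sources used here. Within a library they are whole multiples of 1 step (100% within 0.05 reads), so whole reads were recovered for the count tests. Log2 fold changes and p-values (FDR) that the authors deposited entered only the comparison with the authors' calls.

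Genes with a mean of at least 1 were tested with limma 3.58.1 (R 4.3.3) on log2(value + 1) with a variance trend over all 10 libraries, and adjusted by Benjamini-Hochberg, and the step was tested on simulated data. A floor of 3 reads was between 0.332 and 0.407 units in the 4 libraries and covers counting error only. Genes were placed on GENCODE vM21 (GRCm38, named mm10 by UCSC) by symbol, 53086 directly and 27 by an older symbol of 54294. Promoter windows are the first listed per gene in RefSeq (GRCm38.p6), and 10751 tested genes had one. Windows overlapping an annotated exon were passed over for printing. Named genes are a fixed list of germ cell, pluripotency and signalling genes, the 12 largest increases and decreases with separated libraries and a mean of at least 10, up to 4 called members per list and direction, 5 genes per direction with opposite calls in the overexpression table, and the 5 largest changes per direction among genes above 100 in all 4 libraries; other list members are named where a count rests on them, after their values were seen. The members, the 26 lists and the tests were chosen with earlier results of these data known. Alternatives were another pseudocount (0.1), filters, scalings, fits, edgeR 4.0.16 and DESeq2 1.42.0 on the recovered reads, a replicate block, and each library left out. Python was version 3.11.15, and 0 columns of per-sample values in the tables used were left unmapped. A few genes that the naming rule or the lists hold are not reported here.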

Additional observations from a re-analysis of the deposited data

Results flagged for a closer look

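The genes below were called in both tables in opposite directions between EpiLCs and day 2, with every library of each group on its side. They are only a part of the genes called so, of which 62 were higher and 170 lower in the control cells. The difference between the tables was not tested, since they were scaled separately. Lower at day 2 in the control cells of the dTAG13 table and higher in the overexpression table were the hypoxia genes Adm (log2 fold change -2.27 against 2.37), Egln3 (-2.12 against 1.52) and the aldolase gene Aldoc (-1.72 against 1.11). The immediate early genes Fos (-2.64 against 2.36) and Egr1 (-1.19 against 1.45) went the same way. So did the demethylase gene Kdm6b (-0.76 against 0.47), Fn1, which encodes fibronectin (-0.53 against 0.39), the imprinted gene Peg10 (-1.44 against 0.36) and Tcf7 (-0.96 against 0.26). Fn1 was called in 15 of 16 settings run on the control cells, Cdkn1c in 11 of 16 and Tsix in 11 of 15.

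Higher in the control cells and lower in the overexpression table were Zscan4d (1.55 against -1.78), the cell cycle inhibitor gene Cdkn1c (0.73 against -1.95), the integrin activator gene Fermt1 (1.64 against -1.34) and the receptor gene Tek (1.62 against -1.34). The zinc finger gene Mecom (1.52 against -1.02), the meiotic cohesin gene Smc1b (1.47 against -0.57) and Tsix (0.52 against -0.76) were the others listed here. Adm was at 4.06 and 6.87 in the EpiLC libraries and 0.503 and 0.136 at day 2, and it was at 0, 0.149 and 0.275 in EpiLCs and 7.47, 3.54 and 4.24 at day 2 in the overexpression table. Fos was at 41.7 and 34.7 in the EpiLC libraries and 7.17 and 3.80 at day 2, and at 1.35, 1.94 and 3.02 in EpiLCs and 6.90, 18.2 and 23.8 at day 2 in the overexpression table. Peg10 was at 2504 and 2678 in the EpiLC libraries and 816 and 1117 at day 2, and at 206, 266 and 266 in EpiLCs and 321, 331 and 290.5 at day 2 in the overexpression table.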

How the results depend on the processing

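Between EpiLC and day 2 DMSO cells 4347 genes were called. Under the settings that kept the EpiLC and day 2 libraries and added no fold threshold the count lay between 2981 (no filter on low values) and 5113 (only the 4 libraries). edgeR called 4307 genes, of which 4131 were shared with the main call, and DESeq2 3702, of which 3680 were shared. An added absolute log2 fold change of at least 1 left 1467 genes. Leaving out 1 library at a time left between 2471 (without EpiLC replicate 2) and 3064 (without EpiLC replicate 1) genes. Leaving out day 2 replicate 1 gave 2893. In these fits a group of 1 is assumed to vary like the others. The fit without day 4 DMSO libraries, chosen after seeing the data, called 4874 genes, and one of protein-coding genes, chosen likewise, 4075. A fit with replicate number as block called 4247. The deviations of same-numbered samples correlated at 0.118, which with 2 replicates a group is 1 independent value; nothing in the labels says that a number marks a shared culture or batch. Of genes in the overexpression table, the count was 7059, 1943 with the fold threshold, 6321 with no block for line, and between 5146 and 6688 without 1 line. Of 2979 values of named genes under the alternatives 2815 kept direction and side of the threshold, 146 lost the call, 18 gained one and 0 reversed. Of 416 list medians 102 moved by more than the spread between replicates and 14, in 6 lists, changed sign. The sign changes under quantile normalization stand in the report. The streak and mesoderm median (-0.03) was above 0 under 6 settings (0.04 to 0.56), the adhesion median (-0.13) was 0.03 at a mean of at least 5 and without EpiLC replicate 2, and the signalling median (-0.05) was 0.005 and 0.03 without EpiLC replicate 2 and day 2 replicate 1. Other scalings moved the median of all genes from -0.03 to -0.01 and -0.001. Depth limits genes under about 0.4 units, which is 3 reads.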

Other observations

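A small set of genes went between 0 and detection. Of the genes called higher, 13 were at 0 in both EpiLC libraries, and of those called lower 2 were at 0 in both day 2 libraries. The filter on the mean over 10 libraries, 2 of them EpiLC and the rest PGCLC, passes genes absent from EpiLCs more easily than the reverse, so these numbers are not compared. Pramel6 and Pramel7, members of a gene family expressed in preimplantation embryos, were at 3.14 and 3.12 and at 3.27 and 4.61 at day 2, at least 8.80-fold and 11.1-fold higher against a floor of 3 reads per library. Zscan4d was at 1.38 and 2.58 at day 2, at least 5.56-fold higher. The predicted gene Gm49089 was at 11.6 and 9.36, at least 29.4-fold higher, and Gm10718 at 3.02 and 5.84, at least 12.4-fold higher. Osgin1, an oxidative stress gene, had 3.42 and 2.11 in the EpiLC libraries and 0 in both at day 2, at least 7.05-fold lower. These genes were chosen after their values were seen.
By gene type, 130 of 861 tested TEC models, a GENCODE class that awaits experimental evidence, were called higher and 17 lower (15.1% and 1.97%, beside 11.5% and 14.7% of all tested genes), with a median log2 fold change of 0.25. The filter limit above bears on these low models too, and its part in the shares was not tested. Of 1409 processed pseudogenes 38 were called higher and 159 lower (2.7% and 11.3%, median -0.11). Reads of pseudogenes may be shared with their parent genes.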
